A study of Rattus norvegicus with 12 samples.

Results

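Genes of cholesterol and fatty acid synthesis were followed in rat embryonic stem (ES) cell lines with a paternal haploid genome, in a diploid rat ES cell line and in round sperm cells. The set held 30 genes, written down from general knowledge of the pathways and kept where the array carries a probe set that names that gene alone. The choice was made with earlier results of these data known, so shares of the set against all genes are not independent of the data. A gene with several such probe sets was represented by the one with the highest mean signal over the 12 arrays. By this rule 29 of the 30 were measured, of 14218 genes with such a probe set, and Hmgcs1 was not analysed here. All samples came from the inbred Dark Agouti (DA) strain, and total RNA was hybridised to Affymetrix arrays, 3 biological replicates for each of 4 groups. The lines RAH-6 and RAH-2 hold an androgenetic haploid genome, that is, one from sperm only (RahES), and the line DA5-3 is diploid. All 3 lines grew in N2B27-2i, a serum-free medium with a pair of kinase inhibitors, and were taken up with trypsin and chicken serum. Round sperm cells were freshly isolated, and for them the labels give no purity. Each name stands for 1 line and DA5-3 was the sole diploid line, so a difference from DA5-3 cannot be told apart from ploidy, parental origin or the history of that line. The labels call the arrays biological replicates without saying whether they came from separate thaws or animals, so p-values measure the spread between these samples.

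Cholesterol is built from acetyl-CoA through mevalonate, isoprenoid units, squalene and lanosterol, and fatty acids are built from the same acetyl-CoA through malonyl-CoA. Many of these genes are switched on together by the sterol regulatory element binding proteins, encoded by Srebf1 and Srebf2. SCAP escorts these factors from the endoplasmic reticulum to the Golgi for activation, and INSIG proteins hold them back when sterols are plentiful. Round spermatids are the haploid cells that follow meiosis, and the testis is known for its need of sterols and of long unsaturated fatty acids.

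Of the members called lower in at least 1 haploid line (Scd, Fasn, Mvd and Elovl6, described below), 2 had a promoter in the RefSeq table for the build GRCr8. Both are shown as the sequence around the start of genes called lower. Each runs 5′ to 3′ on the gene's own strand, from 250 bases before to 50 bases after the annotated start. The Mvd promoter lies at chr19:67414925-67415224 on the minus strand and the Scd promoter at chr1:253231682-253231981 on the minus strand. Capitals mark matches to CCAAT (the NF-Y box) and GGGCGG (the Sp1 box), on either strand.
Mvd: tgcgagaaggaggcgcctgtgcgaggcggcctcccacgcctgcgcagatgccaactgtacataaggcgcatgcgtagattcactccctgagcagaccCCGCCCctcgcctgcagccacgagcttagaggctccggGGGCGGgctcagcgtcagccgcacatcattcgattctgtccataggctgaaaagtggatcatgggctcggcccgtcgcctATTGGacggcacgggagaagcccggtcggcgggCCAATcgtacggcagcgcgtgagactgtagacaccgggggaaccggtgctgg
Scd: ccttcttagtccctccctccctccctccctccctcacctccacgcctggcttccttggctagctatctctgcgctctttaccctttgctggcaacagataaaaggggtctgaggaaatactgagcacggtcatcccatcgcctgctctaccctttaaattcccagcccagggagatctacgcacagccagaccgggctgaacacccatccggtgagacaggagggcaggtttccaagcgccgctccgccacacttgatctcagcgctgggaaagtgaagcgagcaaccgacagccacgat
The Mvd window held CCAAT with first bases at -35 (opposite strand) and -2, and GGGCGG at -153 (opposite strand) and -115, counted from the start site, with no overlap between matches. Its GC content was 65.3%, against 58.3% for Scd, and the Scd window held none of the letters searched. The search also covered TCACNCCAC, the core of the sterol regulatory element, and CACGTG, the E-box, on both strands. Over the 22 members with a promoter in the table, CCAAT occurred in 16 (72.7%, against 37.5% of all 33469 promoters of that length). GGGCGG occurred in 19 (86.4%, against 33.1%). CACGTG occurred in 3 (13.6%, against 6.42%) and TCACNCCAC in 0, against 1.12% of all promoters. These shares describe letters in a window, were not adjusted for base composition and were not tested.

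Signals below are MAS5 signals on a linear scale, with every array scaled to the same trimmed mean, and fold changes are log2 changes ± standard error from limma. A gene was called where the Benjamini-Hochberg adjusted p over all genes tested was below 0.05 and the change was at least 2-fold. A gene that met the adjusted p but not the size is described as passing the adjusted p. Between arrays of 1 group, log2 values correlated at 0.967 to 0.984 over probe sets, and 47.3% to 49.0% of probe sets reached a signal of 100 in ES cells against 40.3% to 42.5% in round sperm cells. The ratio of 3′ to 5′ Gapdh signal, a sign of RNA length, was 1.11 to 1.16 in RAH-6, 1.23 to 1.30 in RAH-2, 1.35 to 1.69 in DA5-3 and 1.78 to 2.48 in round sperm cells. The same ratio for beta-actin was 2.94 to 3.28 in RAH-6, 3.99 to 4.93 in RAH-2 and 4.62 to 8.54 in DA5-3. Round sperm cells had 3.62 to 4.72, and the highest beta-actin ratio was on DA5-3 replicate 1. The order of the groups thus differs between these ratios. Of 8 measured markers of naive ES cells, 6 averaged at least 100 in each ES line. Their summed signal was 32879 to 33800 in RAH-6, 38453 to 40602 in RAH-2 and 45505 to 46721 in DA5-3. All 12 fibroblast markers were measured, and 9, 7 and 9 of them averaged at least 100 in RAH-6, RAH-2 and DA5-3. Their summed signal was 19306 to 20124 in RAH-6, 14635 to 19429 in RAH-2 and 52181 to 55821 in DA5-3. All 8 measured round spermatid markers averaged at least 100 in round sperm cells and 0 of 8 in ES cells, and their summed signal was 234998 to 254836 against 108 to 249.

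RNA of genes for the last steps of fatty acid synthesis was lower in the haploid lines than in DA5-3, while most sterol genes differed less. In RahES, taken as the mean of RAH-6 and RAH-2, the log2 change was -1.19 ± 0.06 for Scd, -1.08 ± 0.06 for Fasn and -1.02 ± 0.08 for Mvd (n = 6 and 3). These were 3 of 29 members called lower by limma, where 2.84% of 9282 genes were called lower. No member was called higher (3.68% of all genes), 2 passed the adjusted p in that direction and 3 had an unadjusted p below 0.05. Passing the adjusted p at any size were 19 members lower, or 65.5% of the 29 (26.1% of all genes), and 2 higher (31.1% of all genes). The members had a median of -0.26 and all genes a median of 0.03. In whole RNA of a culture, fewer cells that express a gene and less of its RNA per cell cannot be told apart. The fibroblast marker sum and the naive ES marker sum were both higher in DA5-3 than in either haploid line, as was the Gapdh ratio. Of 9 tested fibroblast markers, 8 were called lower in RahES, with a median of -2.65, while Fn1 read 13693 to 15302 on all 9 arrays and made up much of the sum. The part of these in the differences was not tested.

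**Figure D1:**
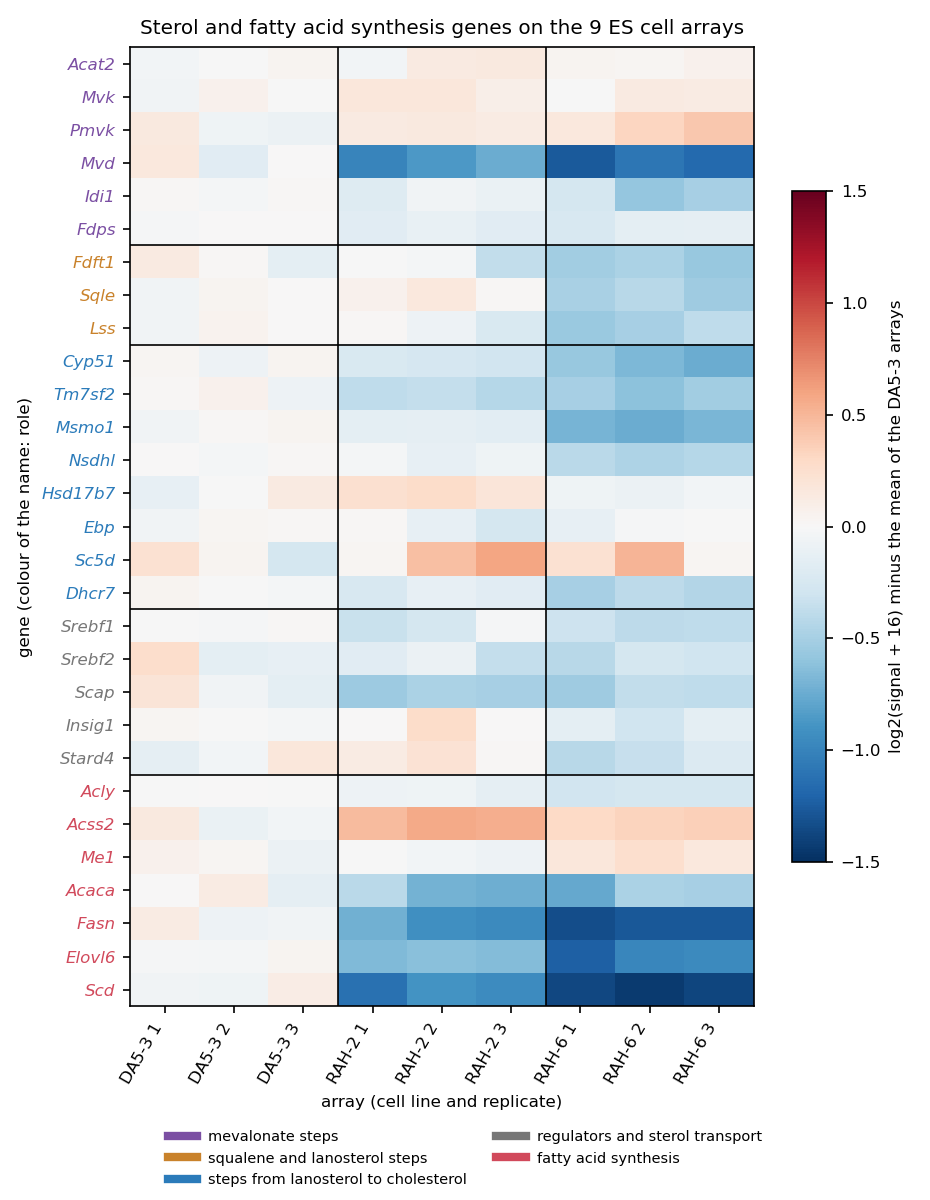
Signal of the 29 measured members on each of the 9 ES cell arrays, as log2(signal + 16) minus the mean of the 3 DA5-3 arrays. Rows are genes grouped by role, columns are arrays, blue is below DA5-3 and red above. Mvd, Fasn, Elovl6 and Scd are blue on all 6 haploid arrays, Acss2 is red on all 6, and Msmo1, Sqle and other sterol genes are bluer in RAH-6 than in RAH-2.

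Among the 7 genes of fatty acid synthesis, 5 passed the adjusted p lower and 1 higher in RahES against DA5-3, with a median of -0.60. Scd, the desaturase that makes oleate from stearate (chromosome 1, Entrez gene 246074), read 965, 918 and 954 in RAH-6, 1144, 1336 and 1294 in RAH-2, and 2417, 2404 and 2712 in DA5-3. Every haploid array was below every diploid array, and the arrays of the haploid lines did not overlap each other either. The 2.28-fold difference of RahES had an adjusted p of 1.4e-08 by limma. Fasn, the synthase that assembles palmitate (chromosome 10, Entrez gene 50671), read 3855, 4017 and 4007 in RAH-6, 5912, 5133 and 5001 in RAH-2, and 10605, 9235 and 9377 in DA5-3. It showed the same order without overlap, and its 2.11-fold difference had an adjusted p of 1.8e-08 by limma. The dimmer Fasn probe set gave -1.005 for RahES against DA5-3.

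Elovl6, which lengthens palmitate to stearate (chromosome 2, Entrez gene 171402), read 612, 724 and 736 in RAH-6, 911, 931 and 917 in RAH-2, and 1424, 1422 and 1493 in DA5-3. All 3 lines stood apart, with a change of -0.85 ± 0.07 in RahES that passed the adjusted p but not the size. Its other probe set gave -0.78. Acaca, the carboxylase that makes malonyl-CoA, ranged from 826 to 1010.4 in RAH-6, 846 to 1066 in RAH-2 and 1287 to 1540.5 in DA5-3, a change of -0.60 ± 0.09 in RahES. Its dimmer probe set, between 38.1 and 142 on all arrays, gave -0.15. Acly, which releases acetyl-CoA from citrate, differed by -0.18 ± 0.03 and passed the adjusted p.

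The member of this group that went the other way was Acss2, which makes acetyl-CoA from acetate. It read 741, 762 and 774 in RAH-6, 839.8, 899 and 885 in RAH-2, and 668, 559 and 584 in DA5-3. All haploid arrays were above all diploid ones, with a change of 0.43 ± 0.07 (adjusted p = 0.00017 by limma, n = 6 and 3) that did not reach the size for a call. Me1, the malic enzyme that supplies NADPH, differed by 0.08 ± 0.05 and did not pass, with an interval of -0.04 to 0.19, and its other probe set gave -0.19.

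Of the 6 measured mevalonate genes, 3 passed the adjusted p lower and 1 higher in RahES, with a median of -0.05. Mvd, which turns diphosphomevalonate into the first isoprenoid unit (chromosome 19, Entrez gene 81726), read 523, 596 and 561 in RAH-6, 637, 695 and 759 in RAH-2, and 1433, 1134 and 1288 in DA5-3. The haploid and diploid arrays did not overlap, and the difference was 2.02-fold (adjusted p = 6.4e-07 by limma). It stayed below DA5-3 in every setting tried but ended just under the size for a call without RAH-6 replicate 1 (-0.99), RAH-2 replicate 1 (-0.99) or DA5-3 replicate 1 (-0.94), the array on which the Gapdh ratio was highest among ES cells. Idi1, which interconverts the 2 isoprenoid units, and Fdps, which joins them to farnesyl diphosphate, were lower, at -0.28 ± 0.06 and -0.16 ± 0.04, and passed the adjusted p. Pmvk, the phosphomevalonate kinase, passed in the other direction at 0.21 ± 0.08, with overlapping arrays (517 to 617 in RAH-6, 505 to 515 in RAH-2 and 436 to 515 in DA5-3). The first enzyme, Acat2 (0.06 ± 0.05), and mevalonate kinase Mvk (0.12 ± 0.06) did not pass, with intervals of -0.04 to 0.17 and -0.02 to 0.26. A dimmer Mvk probe set gave 0.87, with 147 to 192 on the haploid arrays and 48.0 to 109 in DA5-3, without overlap, so the Mvk probe sets disagree.

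**Figure D2:**
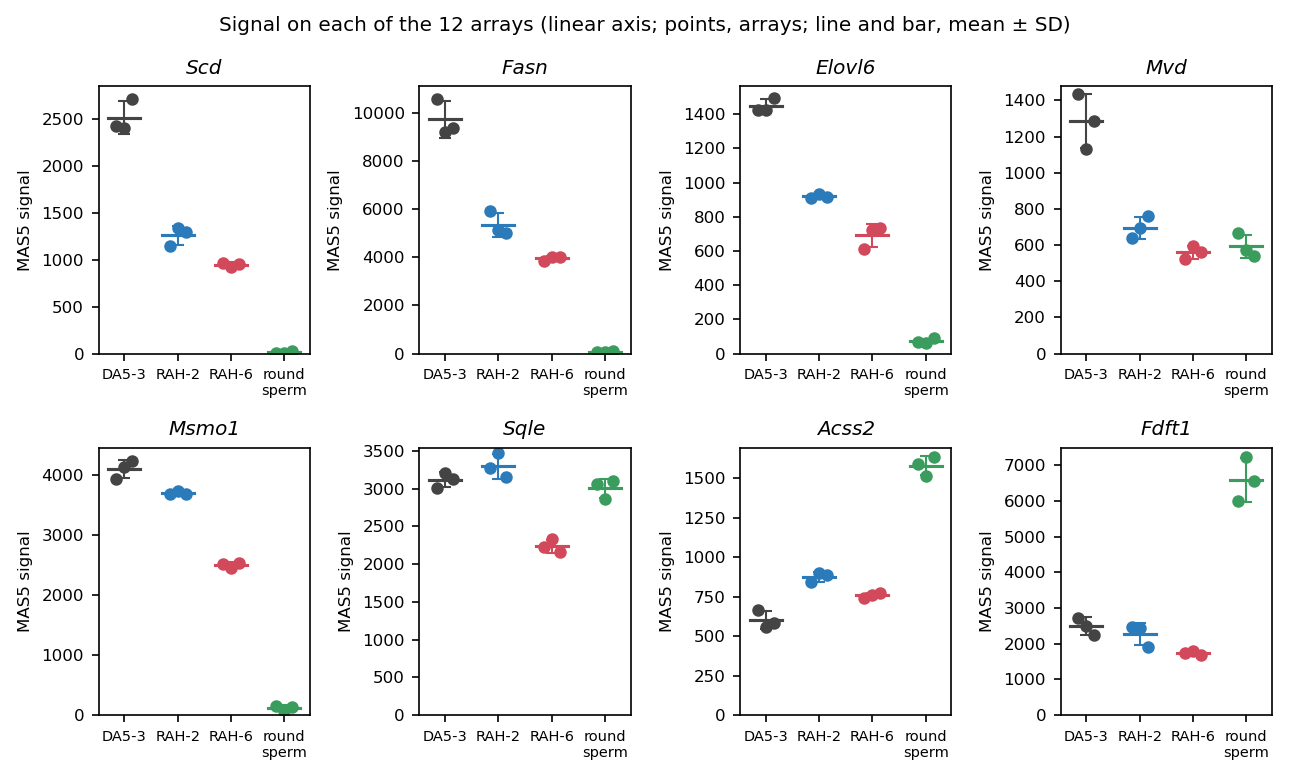
MAS5 signal of 8 members on each of the 12 arrays, on linear axes that start at 0. Points are arrays, and the line and bar are the mean and SD of a group (n = 3). Scd, Fasn, Elovl6 and Mvd are highest in DA5-3, Msmo1 and Sqle are lower in RAH-6 than in RAH-2, and Acss2 and Fdft1 are highest in round sperm cells.

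The 3 genes that lead from farnesyl diphosphate to lanosterol all passed the adjusted p lower in RahES, at -0.33 ± 0.08 for squalene synthase (Fdft1), -0.20 ± 0.05 for squalene epoxidase (Sqle) and -0.29 ± 0.07 for lanosterol synthase (Lss). On the probe sets used, their arrays overlapped, because RAH-2 lay near DA5-3. The dimmer Fdft1 probe set gave -0.44 in RahES. It read 678 to 690 in RAH-2 and 774 to 893 in DA5-3, without overlap. By its brighter probe set Fdft1 read 1730.4, 1784 and 1677 in RAH-6, 2471, 2445 and 1914 in RAH-2, and 2729, 2508 and 2245 in DA5-3. Lss read 607, 633 and 686 in RAH-6, 909, 854 and 763 in RAH-2, and 863, 932 and 903 in DA5-3. On these probe sets of both genes the 3 RAH-6 arrays were the lowest of the 9 and the RAH-2 and DA5-3 arrays interleaved.

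Between lanosterol and cholesterol, 5 of 8 genes passed the adjusted p lower in RahES and 0 higher, with a median of -0.28. Cyp51, the demethylase that opens this stretch, read 4624, 4276 and 4068 in RAH-6, 5833, 5750.3 and 5599.5 in RAH-2, and 6984, 6501 and 7044 in DA5-3, a change of -0.46 ± 0.05. On this probe set the 3 lines did not overlap. The dimmer Cyp51 probe set gave -0.52, with 727 to 953 in RAH-6, 812 to 959 in RAH-2 and 1212 to 1363 in DA5-3. The haploid lines overlapped each other on it. The sterol reductase gene Tm7sf2 read 295, 269 and 288 in RAH-6, 319.7, 326 and 310.1 in RAH-2, and 426, 442 and 398 in DA5-3, a change of -0.47 ± 0.08. For Tm7sf2 the lines stood in 3 separate ranges. Msmo1, the methyl sterol oxidase, read 2516, 2441 and 2535 in RAH-6, 3686, 3735 and 3674 in RAH-2, and 3934, 4129.7 and 4226 in DA5-3, a change of -0.43 ± 0.04 that was mostly a gap between RAH-6 and the other lines.

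The dehydrogenase Nsdhl, which acts beside Msmo1 in removing methyl groups and lies on the X chromosome, read 1354, 1303 and 1331 in RAH-6, 1759, 1646 and 1717 in RAH-2, and 1806, 1766 and 1827 in DA5-3. Dhcr7, which performs the final reduction in one branch of the pathway, read 1897, 2041 and 1991 in RAH-6, 2275, 2475 and 2403 in RAH-2, and 2780.4, 2674 and 2634 in DA5-3. Both kept the order RAH-6, RAH-2, DA5-3 without overlap, and their changes in RahES were -0.25 ± 0.05 and -0.31 ± 0.05. The sterol ketone reductase Hsd17b7 (425, 417 and 431 in RAH-6, 528, 540.2 and 509 in RAH-2, 409, 442 and 489 in DA5-3), the isomerase Ebp (942, 1016 and 1022, then 1041, 942 and 853, then 992, 1052 and 1037 in the same order of lines) and the desaturase Sc5d did not pass in RahES. Sc5d read 1756, 2134 and 1521 in RAH-6, 1531, 2050.3 and 2256 in RAH-2, and 1748, 1539.5 and 1239.8 in DA5-3, with an interval of 0.02 to 0.60 and an adjusted p of 0.067 by limma. Its other probe sets gave 0.63 and 0.31, and on both every haploid array was above every DA5-3 array.

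Among the 5 regulators, 3 passed the adjusted p lower in RahES and 0 higher. Scap read 643, 719 and 715 in RAH-6, 636, 669 and 659 in RAH-2, and 1075, 903 and 843 in DA5-3, a change of -0.47 ± 0.08 in which the haploid lines overlapped each other but not DA5-3. Its dimmer probe set, between 65.6 and 179 on all arrays, gave 0.05. Srebf1, the factor tied more to fatty acid genes, read 811, 768 and 772 in RAH-6, 798, 836 and 998 in RAH-2, and 1005, 999 and 1024 in DA5-3 (-0.28 ± 0.07). The single lowest DA5-3 array exceeded the highest RAH-2 array by a small margin. Srebf2, the factor tied more to sterol genes, read 942, 1049 and 1018 in RAH-6, 1118, 1179 and 976 in RAH-2, and 1518, 1134 and 1155 in DA5-3 (-0.26 ± 0.09), and its arrays overlapped.

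Insig1, itself a sterol-responsive gene, read 2918, 2629 and 2931 in RAH-6, 3245, 3913 and 3239 in RAH-2, and 3314, 3217 and 3172 in DA5-3. Stard4, a carrier of cholesterol between membranes, read 566, 593 and 656 in RAH-6, 829.9, 879.9 and 765 in RAH-2, and 690.2, 738 and 854 in DA5-3. Neither passed in RahES, at -0.05 ± 0.06 and -0.10 ± 0.08, and in both RAH-6 was below the other lines while RAH-2 overlapped DA5-3. Other Stard4 probe sets gave -0.18 and -0.45 in RahES, and on them RAH-6 and RAH-2 overlapped.

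Whether both haploid lines differed from DA5-3 in the same members was asked with each line alone (n = 3 and 3). The comparisons share the DA5-3 arrays, so their values are set side by side. In RAH-6, 4 of 29 members were called lower (2.85% of all genes), namely Scd (-1.39 ± 0.07), Fasn (-1.29 ± 0.07), Mvd (-1.17 ± 0.10) and Elovl6 (-1.05 ± 0.08), and 0 were called higher by limma (4.71% of all genes, 3 with an unadjusted p below 0.05). The Elovl6 call ended without RAH-6 replicate 1 (-0.97). Passing the adjusted p were 21 lower (25.5% of all genes) and 3 higher (30% of all genes), and the median was -0.43. The 3 higher were Acss2 (0.33 ± 0.08), Pmvk (0.29 ± 0.09) and Me1 (0.19 ± 0.06). All 5 regulators and all 3 genes from squalene to lanosterol were among the 21.

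In RAH-2, limma called 0 of 29 members lower (3.15% of all genes) and 0 higher (3.31% of all genes). An unadjusted p below 0.05 was reached by 13 lower and 3 higher. The 4 genes called in RAH-6 passed the adjusted p here too, with Scd at -0.99 ± 0.07, Mvd at -0.87 ± 0.10, Fasn at -0.86 ± 0.07 and Elovl6 at -0.64 ± 0.08. Scd lay just under the size and was called with median centring and without RAH-2 replicate 2, RAH-2 replicate 3, DA5-3 replicate 1 or DA5-3 replicate 2. Passing the adjusted p were 11 lower (22.6% of all genes) and 2 higher (27.6% of all genes), and the median was -0.12. The 2 higher were Acss2 (0.53 ± 0.08) and Hsd17b7 (0.23 ± 0.09). The dimmer Hsd17b7 probe set gave -0.11, so the Hsd17b7 probe sets disagree in direction. None of the 3 genes from squalene to lanosterol passed the adjusted p in RAH-2. The dimmer Fdft1 probe set, not tested, gave -0.31 there. Sqle differed there by 0.08 with an interval of -0.04 to 0.20.

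**Figure D3:**
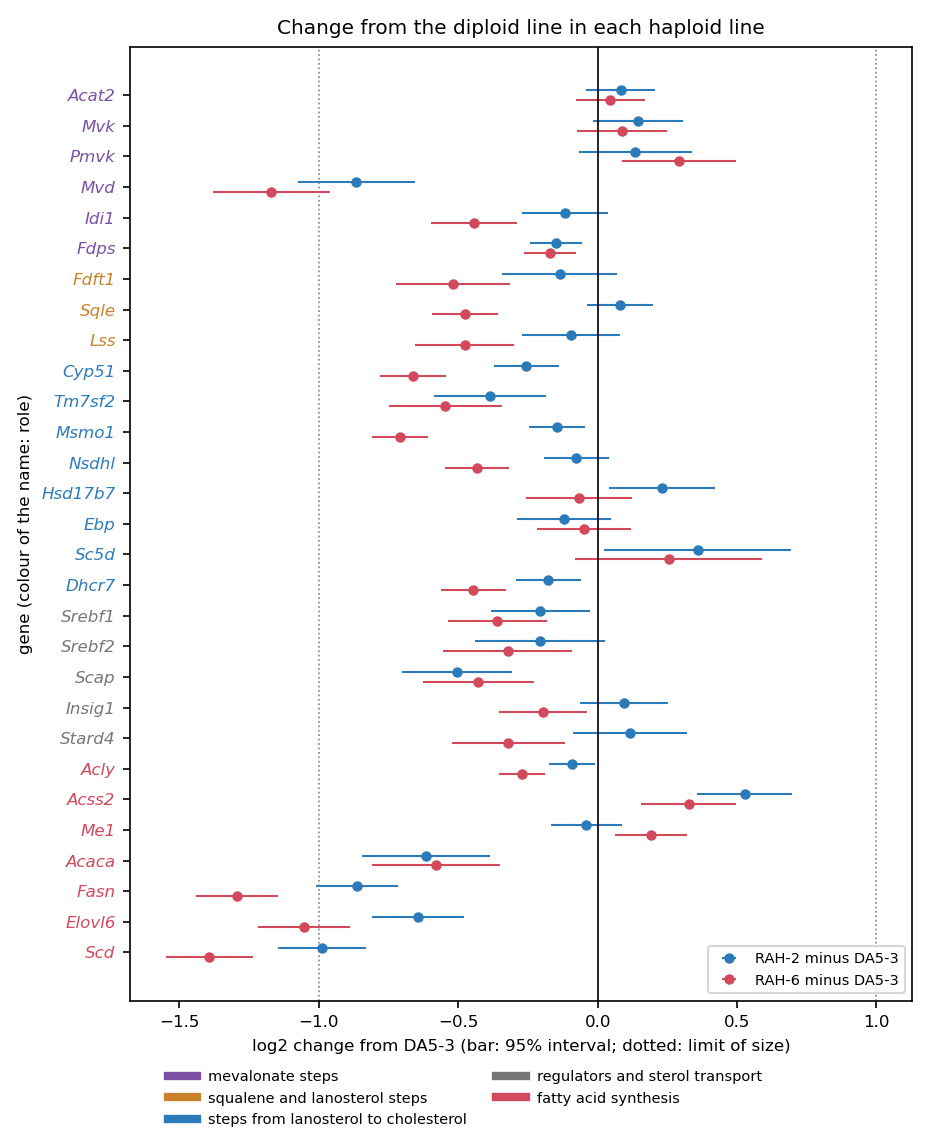
Log2 change from DA5-3 for each of the 29 members in RAH-6 (red) and RAH-2 (blue), with 95% intervals and dotted lines at the size for a call. For Acaca and Scap the points of the lines lie together, and for Msmo1 (-0.71 and -0.15) and Sqle (-0.48 and 0.08) they lie apart.

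The difference between the lines was tested directly as RAH-6 against RAH-2 (n = 3 and 3). No member reached the size for a call in limma, where 0.194% of all genes were called lower and 0.603% higher. Passing the adjusted p were 16 of 29 members lower in RAH-6 (55.2%, against 9.1% of all genes) and 1 higher (9.67% of all genes), and 17 lower and 1 higher had an unadjusted p below 0.05. The members had a median of -0.27 and all genes 0.01. The differences of the 16 ran from -0.56 to -0.18.

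They lay in sterol synthesis, in fatty acid synthesis and among the regulators. Msmo1 (-0.56 ± 0.05, adjusted p = 1.8e-05 by limma) and Sqle (-0.56 ± 0.05, adjusted p = 5.9e-05 by limma) were lower in 3 of 3 RAH-6 arrays than in every RAH-2 array. Sqle read 2227, 2329.9 and 2156 in RAH-6, 3267, 3479 and 3150.3 in RAH-2, and 3011, 3208 and 3132 in DA5-3, so that RAH-2 and DA5-3 shared a range. All 3 genes from squalene to lanosterol passed, 5 of 8 from lanosterol to cholesterol, 2 of 6 of mevalonate, and Stard4 (-0.44 ± 0.09) and Insig1 (-0.29 ± 0.07) of the 5 regulators. Other Stard4 probe sets gave -0.09 and 0.21, so the Stard4 difference between the lines depends on the probe set. Of the 7 genes of fatty acid synthesis, Fasn (-0.43 ± 0.07), Elovl6 (-0.41 ± 0.08), Scd (-0.40 ± 0.07) and Acly (-0.18 ± 0.04) passed lower, and Me1 passed higher (0.23 ± 0.06).

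Some members did not separate the lines. Acaca differed by 0.03 with an interval of -0.20 to 0.26 and Scap by 0.08 with an interval of -0.12 to 0.28, although both were below DA5-3 in each line. Srebf1 (-0.15 ± 0.08) and Srebf2 (-0.12 ± 0.11) did not pass between the lines. The naive ES marker sum and the Gapdh ratio were lower in RAH-6 than in RAH-2 on all arrays, and their part in these differences was not tested. Fibroblast markers were uneven within RAH-2, where replicate 2 read 543 for Col1a1 and the other arrays 89.2 and 123. On that array Scd read 1336 against 1144 and 1294, and Fasn 5133 against 5912 and 5001.

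Round sperm cells, haploid cells of the male germ line, were set against each kind of ES cell. ES cells had more of most members. RahES against round sperm cells (n = 6 and 3) called 18 of 29 members higher (43.2% of 10529 genes) and 1 lower (28.9%). DA5-3 against round sperm cells (n = 3 and 3) called 21 higher (43.2%) and 2 lower (29.4%). Both use the same round sperm arrays. Most genes lay above round sperm cells on this scale: the median of all genes was 0.59 for RahES and 0.56 for DA5-3, and centring every array on its median moved it by -0.68 and -0.61. The share of higher genes among all called was 60% and 59.5%, and 47.6% and 48.7% with that centring. The members had medians of 2.43 and 2.57, or 2.32 and 2.20 with genes below 100 on every round sperm array at their bound. With median centring 17 and 18 members were called higher, and 4 and 3 lower.

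**Figure D4:**
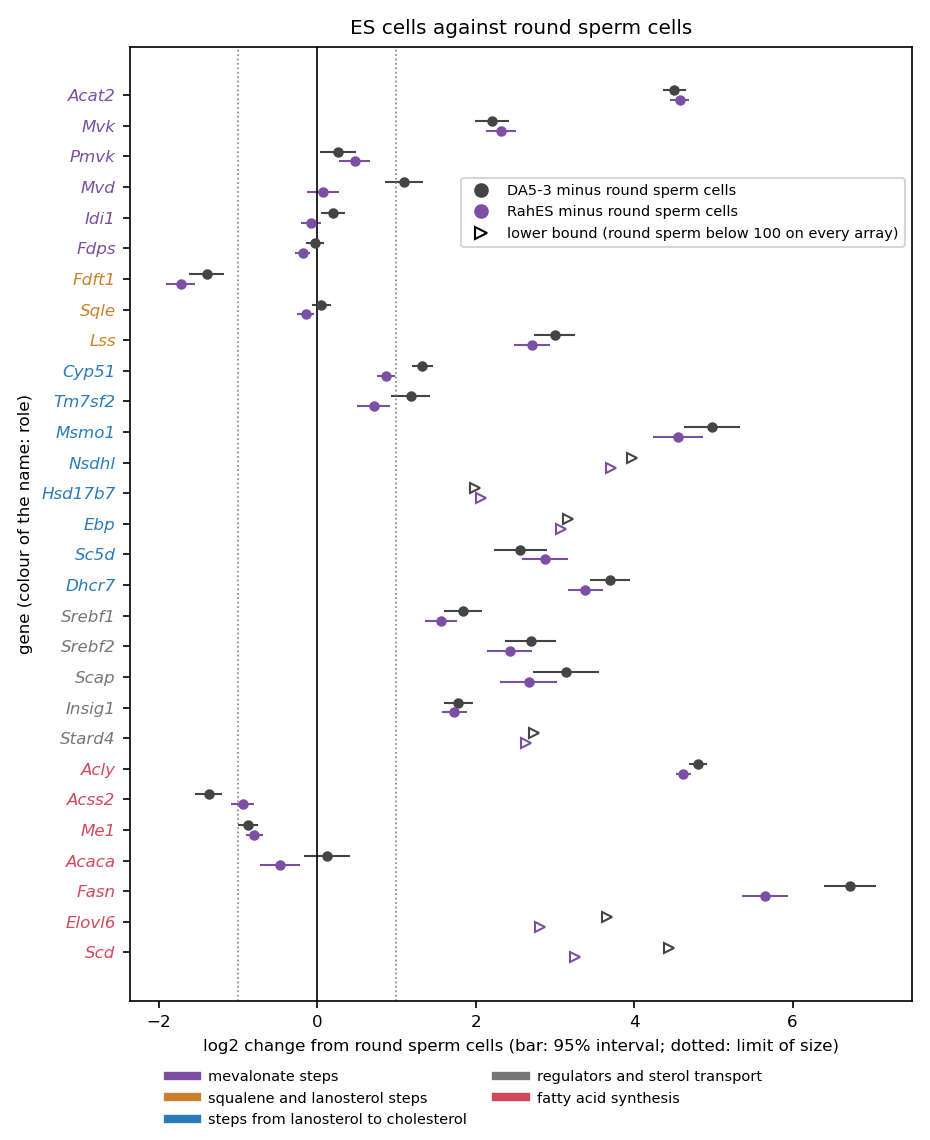
Log2 change from round sperm cells for each member in RahES (purple) and DA5-3 (black), with 95% intervals and dotted lines at the size for a call. Open triangles are lower bounds for genes below 100 on every round sperm array. Fasn, whose round sperm signals are close to background, lies at 5.65 and 6.73, Fdps, Sqle, Idi1 and Pmvk lie near 0, and Fdft1, Acss2 and Me1 lie left of 0.

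Genes for the end of fatty acid synthesis read near background in round sperm cells while those of its first supply enzymes did not. Fasn read 78.3, 51.4 and 106 in round sperm cells, reaching 100 on 1 of 3 arrays, and was 5.65 ± 0.13 below RahES and 6.73 ± 0.15 below DA5-3. These are 5.06 and 6.17 beyond the median of all genes, and they rest on round sperm signals close to background. Scd read 6.41, 7.06 and 26.1 and Elovl6 69.3, 63.2 and 88.4, so that only bounds hold: Scd was at least 9.53-fold higher in RahES and 21.7-fold in DA5-3, and Elovl6 at least 7.0-fold and 12.6-fold. Acly, at 282, 299 and 322, was 4.62 ± 0.04 below RahES and 4.80 ± 0.05 below DA5-3.

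Acss2 went the other way, with 1589.8, 1516 and 1634 in round sperm cells. The change was -1.37 ± 0.08 in DA5-3, which was called (adjusted p = 4.2e-10 by limma), and -0.94 ± 0.07 in RahES, short of the size for a call. Me1 ranged from 2946 to 3061 in round sperm cells, with changes of -0.79 ± 0.05 in RahES and -0.87 ± 0.06 in DA5-3 that passed the adjusted p. Acaca ranged from 1044 to 1449 and overlapped both kinds of ES cell. With median centring Acaca, Acss2 and Me1 were called lower in RahES, and Me1 in DA5-3.

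Among the mevalonate genes, Acat2 and Mvk were called lower in round sperm cells than in both kinds of ES cell. Acat2 read 93.5, 100.4 and 98.3 there, reaching 100 on 1 of 3 arrays, and was 4.57 ± 0.06 below RahES and 4.51 ± 0.07 below DA5-3. Mvk read 121, 144 and 122, with differences of 2.32 ± 0.09 and 2.20 ± 0.10, but the dimmer Mvk probe set gave 0.86 in RahES and -0.01 in DA5-3. Mvd read 666, 573 and 539.6 and overlapped RahES (0.08 ± 0.09) while DA5-3 was 1.09 ± 0.11 above it. Against the median of all genes these Mvd differences were -0.51 and 0.54, so the Mvd direction in RahES depends on the scaling. Fdps (8349 to 9553), Idi1 (3775 to 3924) and Pmvk (353 to 416) were within 0.47 of both kinds of ES cell, and the dimmer Idi1 probe set gave 1.15 and 1.37.

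Squalene synthase was called higher in round sperm cells than in both kinds of ES cell by its brighter probe set. Fdft1 read 6000.2, 7219 and 6551 there against 1677 to 2729 on the 9 ES cell arrays, with no overlap, and the changes were -1.72 ± 0.09 in RahES and -1.40 ± 0.10 in DA5-3. Its dimmer probe set, between 527 and 893 on all arrays, gave -0.42 and 0.02, so in DA5-3 the probe sets disagree on whether Fdft1 differed at all. Sqle ranged from 2864 to 3101, as in DA5-3 (0.05 ± 0.06). Lss, the next enzyme, read 87.4, 121 and 89.2, reaching 100 on 1 of 3 arrays, and was 2.71 ± 0.10 and 3.00 ± 0.12 lower in round sperm cells. Its other probe set, at 14.3 to 136 on all arrays, gave -0.36 and 0.11.

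After lanosterol, all 8 genes passed the adjusted p higher in both kinds of ES cell, as did 54.7% of all genes in RahES and 53.7% in DA5-3. Cyp51 read 2785, 2521 and 2869 in round sperm cells and Tm7sf2 171, 192 and 169. Cyp51 was called in DA5-3 (1.32 ± 0.06) and not in RahES (0.87 ± 0.05), and Tm7sf2 likewise (1.18 ± 0.11 and 0.71 ± 0.10), and neither was called in DA5-3 with median centring (0.715 and 0.57). The other Cyp51 probe set gave larger changes of 1.55 in RahES and 2.07 in DA5-3. Msmo1, at 143, 71.6 and 142, was 4.55 ± 0.14 and 4.98 ± 0.17 lower. Dhcr7, at 195, 243 and 150.3, was 3.39 ± 0.10 and 3.70 ± 0.12 lower. Both were far outside the ES cell ranges.

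Sc5d read 242, 236 and 239 in round sperm cells and was 2.87 ± 0.13 and 2.57 ± 0.15 lower than RahES and DA5-3, while 1 of its other probe sets gave 0.88 and 0.57. For the other 3 genes of this stretch only bounds hold. Nsdhl read 27.3, 8.64 and 41.0 and was at least 13.1-fold and 15.7-fold higher in RahES and DA5-3. Ebp, also X-linked, read 3.09, 12.2 and 25.8 and was at least 8.47-fold and 8.99-fold higher. Hsd17b7 read 18.1, 5.01 and 2.76 and was at least 4.21-fold and 3.98-fold higher, while its other probe set differed by 1.66 and 1.75.

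All 5 regulators were called higher in both kinds of ES cell, as were 43.2% of all genes in each. Srebf1 read 281, 305 and 229 in round sperm cells, with differences of 1.56 ± 0.10 and 1.84 ± 0.11, and the call in RahES ended with median centring (0.88). Srebf2 read 219, 194 and 139 (2.43 ± 0.13 and 2.69 ± 0.15). Scap read 102, 57.3 and 129.8 (2.67 ± 0.17 and 3.14 ± 0.19), but its dimmer probe set was higher in round sperm cells (-0.74 and -0.80). The probe sets of Scap therefore disagree in direction. Insig1 read 995, 837 and 959 (1.73 ± 0.07 and 1.78 ± 0.08), and Stard4, at 83.2, 46.2 and 38.6, was at least 6.22-fold and 6.67-fold higher in RahES and DA5-3. Leydig cells make steroids from cholesterol, and 5 of their 6 markers averaged at least 100 in round sperm cells, with a summed signal of 708 to 1030 against 98.4 to 195 in ES cells. Of these, Star (95.5 to 114) and Cyp11a1 (92.7 to 130) lay close to 100 in round sperm cells. Macrophage and blood markers summed to 3135 to 3580 there, against 497 to 922 in ES cells. Hbb (1247 to 1632) and Lyz2 (1086 to 1154) made up most of the round sperm sum. These, C1qa and C1qb were higher on every round sperm array than on every ES cell array. Laptm5 went the other way (74.8 to 93.6 against 195 to 540), and Cd68, Cd14 and Ptprc overlapped. All 4 measured spermatocyte markers averaged at least 100 in round sperm cells, with a sum of 18453 to 22173 against 716 to 3097 in ES cells. Of 7 Sertoli cell markers 3 did, with a sum of 950 to 1104.5 against 13430 to 15889 in ES cells. Rhox5 made up most of the ES cell sum, at 13096 to 14986 in ES cells and 10.6 to 43.3 in round sperm cells. Clu, Cldn11 and Wt1 were higher on every round sperm array than on every ES cell array, and Amh, Gata4 and Inhbb were not. The part of these cells in the round sperm values was not tested.

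Related lipid genes outside the set were described from lists for neighbouring pathways, also chosen with earlier results of these data known. RNA of genes for fatty acid oxidation, which breaks fatty acids down in mitochondria, was mostly higher in RahES. Of 13 tested genes, 11 passed the adjusted p higher and 0 lower (31.1% and 26.1% of all genes), with a median of 0.51. By limma 0 of the 13 had an unadjusted p below 0.05 in the lower direction. The counts were 12 higher in RAH-6 (30% of all genes) and 9 in RAH-2 (27.6% of all genes), with 0 lower in each. Cpt1a, the liver-type carnitine palmitoyltransferase that admits fatty acids to mitochondria, read 1816, 1842 and 1819 in RAH-6, 1533, 1404 and 1542 in RAH-2, and 518, 509 and 557 in DA5-3. It rose by 1.62 ± 0.06 in RahES (adjusted p = 3.2e-10 by limma) with no overlap. Cpt1b, the muscle-type enzyme, read 462, 401 and 425 in RAH-6, 409.5, 340.4 and 427 in RAH-2, and 183, 129.9 and 114 in DA5-3, and rose by 1.45 ± 0.13. These 2 were the genes of the list that were called.

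In sterol sensing, uptake and efflux, 7 of 15 genes passed the adjusted p higher (46.7%, against 31.1% of all genes) and 4 lower (26.7%, near the 26.1% of all genes) in RahES. Soat1, which esterifies cholesterol for storage, read 1177, 1067 and 1186 in RAH-6, 1178, 1209 and 1211 in RAH-2, and 543, 537 and 622 in DA5-3. It rose by 1.03 ± 0.07 and was the single gene of this list called. Of 22 genes of fatty acid supply, elongation and desaturation, 11 passed higher (50% against 31.1% of all genes) and 5 lower (22.7% against 26.1%), with a median of 0.14. Agpat2, an acyltransferase of phosphatidic acid synthesis, was called in RAH-6 (1.06 ± 0.10, 772 ± 91.1 against 361 ± 29.7, SD, n = 3 each). Of 7 other genes of sterol and isoprenoid synthesis, 3 passed higher and 0 lower, and limma called 0.

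**Figure D5:**
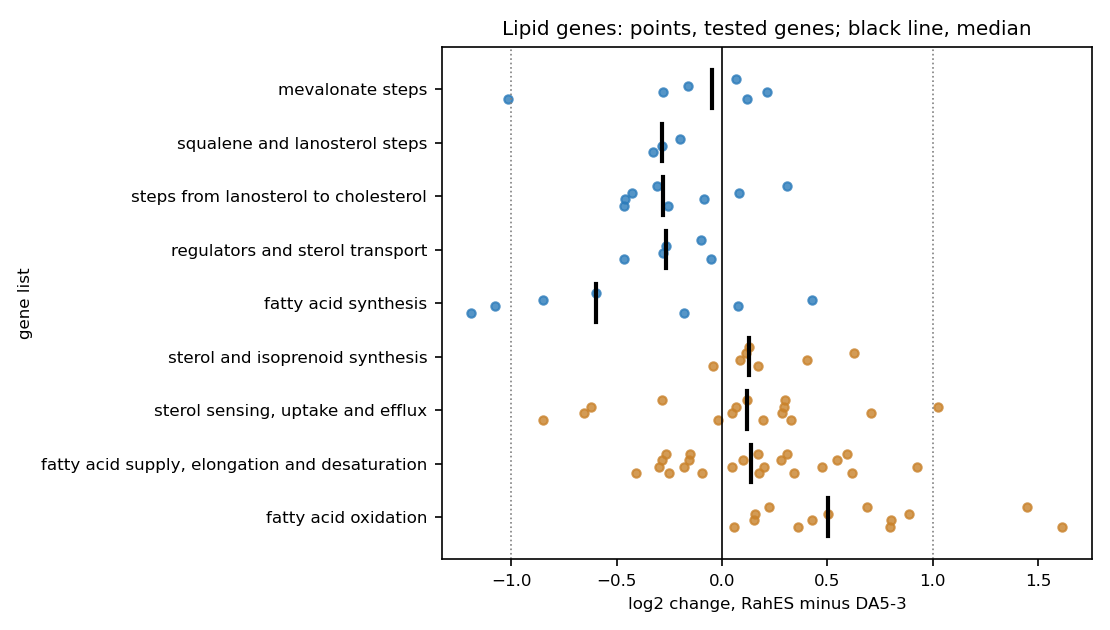
Log2 change of RahES against DA5-3 for the tested genes of each list, members in blue and related lists in orange, with black lines at medians and dotted lines at the size for a call. The median of fatty acid synthesis is -0.60 and that of fatty acid oxidation 0.51.

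Against round sperm cells, genes of fatty acid oxidation were called in both directions. Cpt1b read 12080.2, 11625 and 11513 in round sperm cells with changes of -4.79 ± 0.12 in RahES and -6.24 ± 0.14 in DA5-3. By its brighter probe set, the liver-type relative Cpt1a was below 100 on all 3 round sperm arrays. On that set it was at least 14.4-fold higher in RahES and 4.69-fold in DA5-3. The dimmer Cpt1a probe set read 161, 184 and 142 in round sperm cells, 168 to 216 in RAH-6 and 119 to 128 in RAH-2. It read 60.2 to 87.5 in DA5-3, so for DA5-3 the Cpt1a probe sets disagree in direction. Cpt2, the partner enzyme on the inner membrane, averaged 4898 ± 22.5 in round sperm cells against 188 ± 14.3 in RahES (n = 6) and 94.6 ± 10.2 in DA5-3. Scd2, a desaturase related to Scd, was 5.18 ± 0.05 and 5.59 ± 0.06 higher in RahES and DA5-3, and the acyl-CoA synthetase Acsl4 was at least 24.5-fold and 30.1-fold higher. Pgrmc1, a partner of sterol cytochromes, was 6.28 ± 0.09 and 6.17 ± 0.10 higher, and Hsd17b12, of fatty acid elongation, 2.99 ± 0.06 and 2.82 ± 0.07.

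Among transport and processing genes, the receptor Vldlr, which takes up lipoproteins, was at 5112 ± 242 in round sperm cells (n = 3), with a change of -4.19 ± 0.13 in RahES. Mbtps2, a protease that releases the sterol regulatory factors, was at least 17.0-fold and 16.3-fold higher in RahES and DA5-3. Mbtps1, which cuts them first, was 2.80 ± 0.10 higher in DA5-3. Npc2, which carries cholesterol out of lysosomes, was 2.33 ± 0.04 and 2.04 ± 0.05 higher in RahES and DA5-3. Cyb5r3, a reductase that feeds electrons to sterol enzymes, was 3.12 ± 0.12 and 2.49 ± 0.14 higher, and Fdx1, a mitochondrial electron carrier, had a change of -1.38 ± 0.07 in DA5-3.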

How the data were processed

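Expression was measured on 12 arrays, 3 for each of 4 groups taken from the sample labels. The values the authors deposited were log2 signals, and the submitters' processing notes name MAS5, whose version is not given in the sources used here. On every array the lowest deposited value was 0 and the 2% trimmed mean of the linear signal was about 500 (500.184 to 500.279). Here signals were returned to the linear scale, multiplied so that this trimmed mean is 500, and put on log2 after an offset of 16. Of 31099 probe sets, 20832 name 1 gene, 436 several and 9831 none. RefSeq (GRCr8) matched 20764 of the 20832 by gene ID and changed 0 symbols. Genes were kept at a signal of at least 100 on at least 3 arrays of a fit. All 29 members passed this filter in every comparison.

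limma 3.58.1 in R 4.3.3 (lmFit, eBayes with trend) was fitted to the 9 ES cell arrays (9282 genes), or to all 12 (10529 genes) for comparisons with round sperm cells. RahES is the mean of both haploid lines with equal weight. Calls needed a Benjamini-Hochberg adjusted p below 0.05 and a log2 change of at least 1. The offset understates changes of dim genes. Precision is limited by the number of arrays. Where all arrays of a group were below 100, the fold is a lower bound between 100 and the other group's mean, both with the offset. Of the members, 16 have several probe sets. No 2 arrays held identical values (0 of 66 pairs). The fit was tested on simulated data.

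The members, the related lists and the markers were chosen with earlier results of these data known. Every member may be named. Values on every array are given for members called in at least 1 of the 6 comparisons without overlap, and up to 3 called genes with the smallest adjusted p per related list and comparison. Col1a1, the values of other probe sets, and array values of members that overlap are exceptions, named after their values were seen. Alternatives were median centring, offsets of 1 and 64, no filter or one at 200, no variance trend, other arrays in the fit, another choice of probe set, the deposited values as they are, a replicate block, and leaving out arrays.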

Additional observations from a re-analysis of the deposited data

Results flagged for a closer look

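The change from DA5-3 differed between RAH-6 and RAH-2 for 17 members, by the direct test of the difference in limma (adjusted p below 0.05, n = 3 per line, higher or lower in 3 of 3 arrays against 3). The difference, RAH-6 minus RAH-2, equals the difference between the lines, since both share the DA5-3 arrays. In the sterol steps it was -0.56 for Msmo1, -0.56 for Sqle, -0.41 for Cyp51, -0.38 for Fdft1, -0.38 for Lss, -0.36 for Nsdhl, -0.33 for Idi1, -0.30 for Mvd, -0.30 for Hsd17b7 and -0.27 for Dhcr7 on the log2 scale. Among the regulators it was -0.44 for Stard4 and -0.29 for Insig1. In fatty acid synthesis it was -0.43 for Fasn, -0.41 for Elovl6, -0.40 for Scd, -0.18 for Acly and, in the other direction, 0.23 for Me1. None of these reached the size for a call between the lines. Other probe sets, not tested, gave -0.09 and 0.21 for Stard4, -0.09 for Cyp51 and 0.03 for Hsd17b7. For Cyp51 the size of the difference depends on the probe set, and for Stard4 and Hsd17b7 its sign does too. The other probe sets of Idi1, Fdft1, Nsdhl, Fasn and Elovl6 gave -0.83 to -0.27, and that of Me1 gave 0.28. That of Lss, close to background, gave -1.25.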

How the results depend on the processing

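Over the 11 alternatives and all left-out arrays, 1096 of 1106 values of called members kept their call and direction, 10 kept the direction but not the call, and 0 reversed. In RAH-2 against DA5-3 the number of members called, all lower, rose from 0 to 1 with median centring and without the 3 doubted arrays together (round sperm replicate 1, DA5-3 replicate 1 and RAH-2 replicate 2, taken from earlier results of these data; of these the Gapdh ratio sets apart DA5-3 replicate 1), and ranged from 0 to 1 with single arrays left out. The gained member was Scd each time. Members called lower in RahES against round sperm cells rose from 1 to 4 with median centring, which gained Acaca, Acss2 and Me1. With single arrays left out, members called ranged from 2 to 3 in RahES against DA5-3 and from 3 to 4 in RAH-6 against DA5-3. Mvd in RahES against DA5-3 fell short of the size with an offset of 64 and without the 3 doubted arrays (-0.94, the smallest change over the alternatives), and Mvd in DA5-3 against round sperm cells with median centring (0.485). The cause of these differences was not tested. The replicate numbers do not pair the arrays: over 18 same-numbered pairs the deviations from group means correlated between -0.0855 and 0.0589, with 0 over 0.1. For 5 of 12 arrays, the mean correlation with arrays of the other groups was highest for their own number. With a replicate block, 3 members were called in RahES against DA5-3, 4 in RAH-6, 0 in RAH-2, 0 between the lines, and 19 and 23 against round sperm cells, as without it. Genes near a signal of 100, as many members are in round sperm cells, rest on values close to background.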

Other observations

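Scd2 is listed with 4 probe sets, and one of them behaved unlike the set used above. It was singled out after its values were seen. That probe set read 4195, 4082 and 4723 in DA5-3, 525, 479 and 451 in RAH-6, 89.0, 635 and 175 in RAH-2, and 4.40, 6.18 and 6.45 in round sperm cells. The brightest set read 14490.4 to 15294 in DA5-3, 10361 to 10403 in RAH-6 and 11342 to 12888 in RAH-2. Col1a1, a fibroblast marker, read 5793, 6052 and 6123 in DA5-3, 392, 354 and 424 in RAH-6, and 89.2, 543 and 123 in RAH-2. Both features were highest in DA5-3 and, within RAH-2, highest on replicate 2. The part of other cells in the Scd2 signal was not tested.

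The acyltransferase Agpat2 was at 4561 ± 362 in round sperm cells, against 361 ± 29.7 in DA5-3, 638 ± 25.6 in RAH-2 and 772 ± 91.1 in RAH-6 (SD, n = 3 each).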
